A study of Mus musculus with 12 samples.

Results

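Probe sets of 9 genes of the red cell lineage were followed on every array of a study of sorted bone marrow granulocyte-monocyte precursors (GMPs). The genes were the transcription factors Gata1 and Klf1, the erythropoietin receptor Epor, the haem enzyme Alas2, the transferrin receptor Tfrc, the membrane exchanger Slc4a1, the carbonic anhydrases Car1 and Car2, and the beta globin Hbb-b1. All 9 listed genes had probe sets with a single gene symbol, 51 of the 105661 probe sets in the table, and they were 9 of the 14199 genes with a value. The mice were C57BL/6 and of 4 genotypes with 3 arrays each: wild type (WT), a knock-out of Gfi1 (KO), and 2 knock-ins of human GFI1, in its wild-type form (wtKI) or as a variant (SNP). Both knock-in groups carried a human GFI1 and differed in its form. The labels do not say whether 1 or both copies of the mouse gene were altered. GMPs were collected by fluorescence-activated cell sorting, and their RNA was amplified before hybridisation to Affymetrix Mouse Gene 1.0 ST arrays. The study asked which genes depend on the GFI1 variant in relation to acute myeloid leukaemia. The labels do not say whether the arrays of a group came from separate mice, pooled mice or one sort, nor the age or sex of the mice, so the p-values rest on the spread between these arrays, whatever its source.

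GMPs are committed to granulocytes and monocytes, and red cells arise from a sister branch of the marrow, the megakaryocyte-erythroid progenitors. In that branch GATA1 binds GATA sequences and KLF1 binds CACCC sequences in the promoters and enhancers of red cell genes. Erythropoietin, acting through its receptor EPOR, keeps the maturing cells alive while haem, globin and the red cell membrane are made. GFI1, the factor altered in these mice, is a zinc-finger repressor of granulocyte and lymphoid cells, and its relative GFI1B has that role in the erythroid branch.

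All values are log2 signals, and a difference of 1 on this scale is 1 doubling. Levels are compared between arrays for the same gene, never between genes. Arrays KO 1 and SNP 1 stood apart from the other 10 and are shown apart throughout: their median correlations with the other arrays over all probe sets were 0.701 and 0.633, against 0.836 to 0.886 for the rest. The primary granule genes that mark GMPs were present on all arrays, with Mpo between 10.70 on SNP 1 and 11.58 on KO 3. Gfi1 itself, by 5 probe sets, lay between 6.33 and 6.78 in KO and between 5.71 and 6.26 in WT, so its gene value was not lower in KO (difference 0.66 ± 0.21, SE, limma adjusted p = 0.802). Where its probe sets lie relative to the deleted part is not given in the sources used here, so this value does not check the KO label. The 3 arrays WT 3, wtKI 2 and wtKI 3 had low Y-linked genes, with a mean of 2.96 to 3.17 against 7.51 to 8.20 on the other 9, as in female mice. The arrays of WT, and those of wtKI, were therefore not all of the same mice, whereas for KO and SNP a purely technical spread cannot be told apart. Each array's 5th percentile over all probe sets, used here as a mark of near-background signal, lay between 4.39 and 5.65, with the lowest values on SNP 1 (4.39) and KO 1 (4.40) and 5.30 or more on the rest. The median scatter of a gene's probe sets about its gene value was 0.381 on SNP 1 and 0.370 on KO 1, against 0.141 to 0.221 on the other 10.

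Of the transcription factors, Gata1, which drives the whole erythroid programme and is also used by megakaryocytes, mast cells and eosinophils, had the narrower range. By its single probe set it was at 6.78, 6.34 and 6.79 in WT, 7.76, 6.81 and 6.92 in KO, 6.55, 7.09 and 6.99 in wtKI and 7.41, 6.44 and 6.60 in SNP. KO 1 was the highest array and SNP 1 the next. The other 10 arrays spanned 6.34 to 7.09. The 3 KO values lay just above the 3 WT values. Gata1 is X-linked, and the 3 arrays with low Y-linked genes had 6.79, 7.09 and 6.99.

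Klf1, which activates beta globin and many other late erythroid genes, behaved differently. Its single probe set was at 4.64, 3.57 and 5.17 in WT, 5.75, 3.47 and 4.98 in KO, 4.80, 5.41 and 5.73 in wtKI and 9.50, 5.70 and 4.61 in SNP. SNP 1 was 3.75 above the next array, KO 1. On 8 of the 12 arrays Klf1 lay below the 5th percentile of that array, so among those its order has little meaning. Every probe set of the table reached at least 6.14 on some array, and Klf1 did so on SNP 1 alone, while the other arrays stayed at or below 5.75. Its being highest on SNP 1 was thus fixed by its presence in the table. Counts of genes higher by at least 1, or highest, on KO 1 or SNP 1 are given below with and without it.

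Epor, the receptor that carries the erythropoietin signal through JAK2, had a gene value that was nearly flat outside SNP 1 and KO 1. Over 3 probe sets it was at 5.70, 5.77 and 5.71 in WT, 6.38, 5.90 and 5.82 in KO, 5.86, 5.76 and 5.93 in wtKI and 7.56, 5.85 and 5.85 in SNP. SNP 1 was 1.18 above KO 1, which was itself above the other 10, and those 10 spanned only 5.70 to 5.93. The receptor's 3 probe sets were each highest on SNP 1, by 0.88 to 3.33 over the mean of SNP 2 and SNP 3. Singly they were less flat than the gene value: the probe set 10591661 was at 5.10 on wtKI 1 and 6.53 on wtKI 2.

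For haem, Alas2, the erythroid form of the first and rate-limiting enzyme of its synthesis, was measured by 8 probe sets. Its gene value was 5.54, 6.08 and 6.17 in WT, 8.21, 5.78 and 5.93 in KO, 6.40, 6.12 and 5.71 in wtKI and 10.18, 6.25 and 6.46 in SNP. SNP 1 and KO 1 were the 2 highest arrays, 1.96 apart, and no other array exceeded 6.46. The 3 SNP values all lay above the 3 WT values. Alas2 is X-linked too, and the 3 arrays with low Y-linked genes had 6.17, 6.12 and 5.71, inside the range of the others.

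Tfrc, which brings transferrin-bound iron into erythroblasts and into dividing cells of every kind, was high on all arrays. Over 16 probe sets it was at 9.49, 9.14 and 9.47 in WT, 9.20, 9.77 and 9.47 in KO, 9.47, 8.96 and 9.08 in wtKI and 9.83, 9.19 and 9.06 in SNP. SNP 1 was again the highest array, but only by 0.06 over KO 2. KO 1 was below both other KO arrays. Tfrc is thus the 1 of the 9 genes whose KO 1 value was not above the mean of KO 2 and KO 3.

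The membrane protein Slc4a1, or band 3, exchanges chloride for bicarbonate and anchors the red cell skeleton. Over 9 probe sets it was at 6.19, 6.09 and 6.61 in WT, 8.05, 5.98 and 5.99 in KO, 6.21, 6.11 and 6.07 in wtKI and 10.01, 6.23 and 6.10 in SNP. SNP 1 exceeded KO 1 by 1.96, and KO 1 exceeded the remaining 10 arrays, of which WT 3 was the highest. On WT 3 the probe set 10391657 reached 9.54, against 6.87 to 7.58 on the other 9 of those arrays.

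Car1 and Car2 hydrate the carbon dioxide that red cells carry, Car1 mostly in erythroid cells of blood and Car2 in many tissues. Car1, by 5 probe sets, was at 7.05, 5.77 and 7.36 in WT, 8.15, 5.90 and 6.84 in KO, 6.82, 8.78 and 7.41 in wtKI and 10.13, 3.49 and 7.23 in SNP. Here wtKI 2 and not KO 1 was second to SNP 1, and SNP 2 was the lowest array, below its 5th percentile. The SNP group therefore held both ends of the range. Car2, by 7 probe sets, was at 6.90, 5.67 and 5.80 in WT, 5.86, 5.30 and 5.55 in KO, 5.96, 6.75 and 6.32 in wtKI and 9.48, 5.24 and 6.30 in SNP. For Car2 the array next to SNP 1 was WT 1, and KO 1 lay within the range of the others. On KO 2, KO 3 and SNP 2 Car2 was below the 5th percentile.

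The adult beta globin Hbb-b1, which with alpha globin makes haemoglobin, also varied widely outside KO 1 and SNP 1. Its single probe set with 1 gene symbol was at 6.91, 5.90 and 8.80 in WT, 10.31, 5.92 and 5.71 in KO, 7.76, 6.92 and 3.90 in wtKI and 11.52, 7.28 and 7.48 in SNP. The order from the top was SNP 1, KO 1 and WT 3, and wtKI 3 was lowest, below its 5th percentile. Probe sets shared by near-identical globin genes gave that order too. Over the 4 distinct probe sets that Hbb-b1 shares with another beta globin, the median was 11.99 on SNP 1, 11.69 on KO 1, 10.05 on WT 3 and 5.21 on wtKI 3, with the other 8 arrays between 7.25 and 9.46. Over 5 distinct probe sets shared by the 2 alpha globins it was 11.66 on SNP 1, 10.73 on KO 1, 8.83 on WT 3 and 5.62 on wtKI 3, with the others between 6.05 and 7.58. Since such probe sets cannot separate the gene copies, they are given as a family and entered no test.

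**Figure D1:**
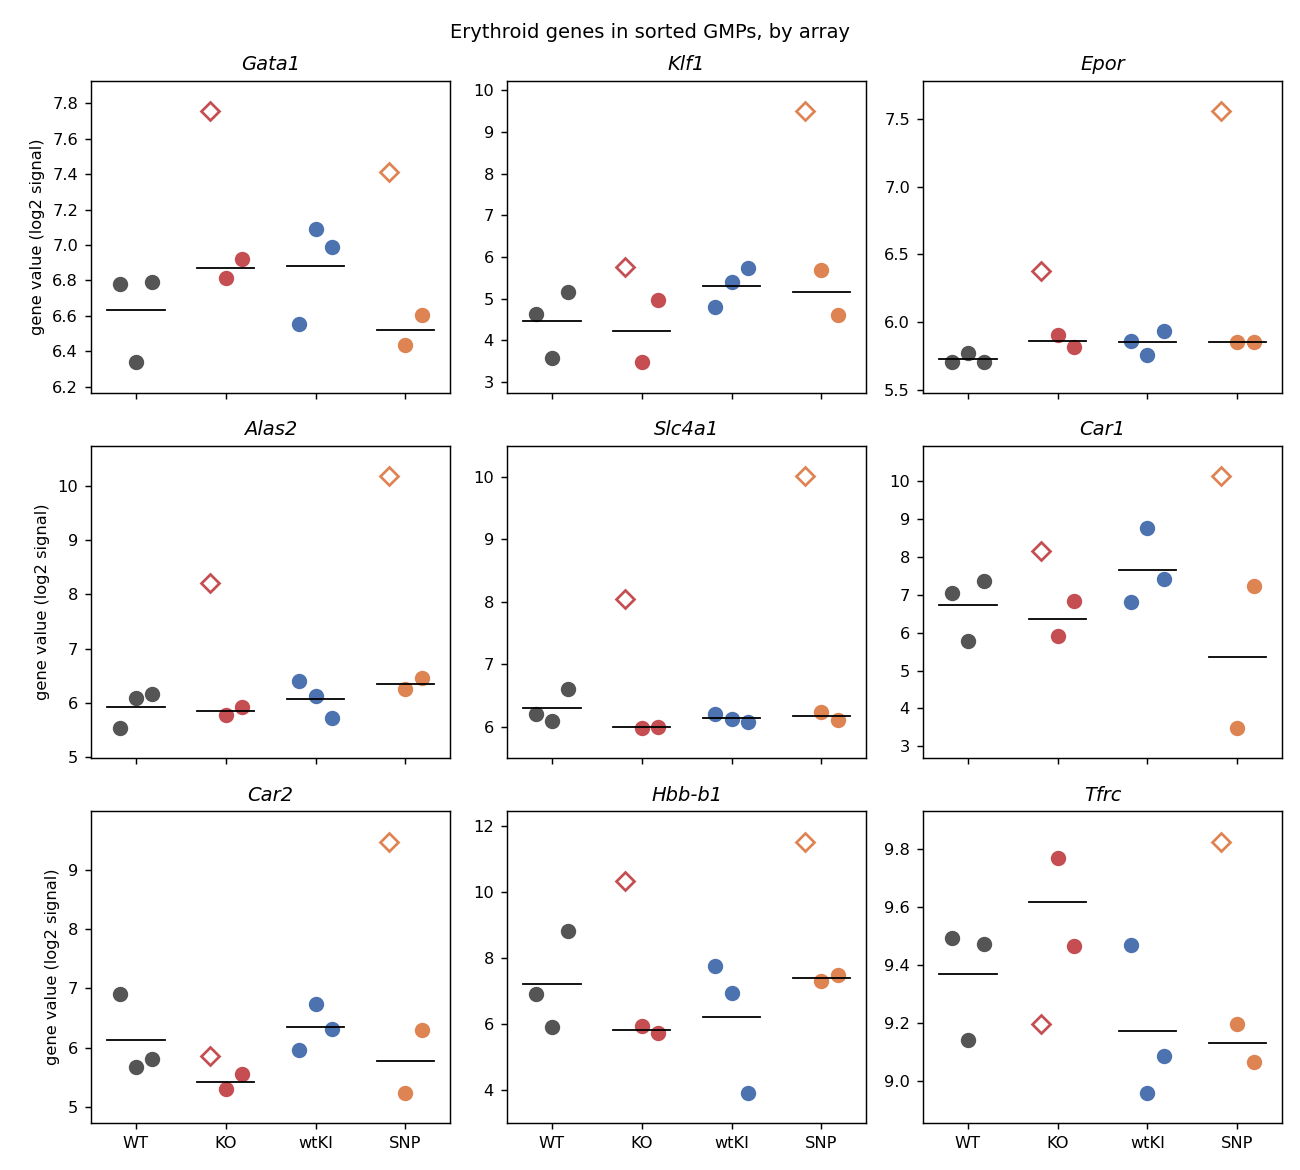
Gene value (log2 signal, vertical axis, a separate scale for each gene) of the 9 erythroid genes on the 12 arrays, grouped by genotype. Open diamonds are KO 1 and SNP 1, filled circles the other 10 arrays, and the line is the group's mean without the diamonds. SNP 1 is the highest array in every panel other than Gata1, and only Tfrc has KO 1 below both other KO arrays.

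Taken against the other 2 arrays of its own group, SNP 1 was higher for 9 of 9 genes. Over all genes 46.2% were above the mean of SNP 2 and SNP 3 on SNP 1. The differences from the mean of SNP 2 and SNP 3 were 4.77 for Car1, 4.35 for Klf1, 4.14 for Hbb-b1, 3.84 for Slc4a1, 3.82 for Alas2 and 3.72 for Car2. They were 1.70 for Epor, 0.89 for Gata1 and 0.70 for Tfrc. The place of Car1 rested on SNP 2, near background, and against SNP 3 alone its difference was 2.90, below those of Klf1 (4.89), Hbb-b1 (4.05), Slc4a1 (3.90), Alas2 (3.72) and Car2 (3.18). So 7 of 9 genes were higher by at least 1 on SNP 1, where 7.70% of all genes were, and the members' median was 3.82 against -0.06 over all genes. SNP 1 was the highest of the 12 arrays for 8 of 9 genes, against 20.0% of all genes. Without Klf1, and without the 60 genes of the table whose every probe set reached 6.14 on KO 1 or SNP 1 alone, these counts were 6 of 8 (7.43% of genes) and 7 of 8 (19.7%), with a median of 3.77. This sets 1 array beside 2 and has no test.

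KO 1 showed a smaller excess over KO 2 and KO 3, with a different order of genes. Hbb-b1 led with 4.50, against 4.14 on SNP 1, followed by Alas2 (2.36), Slc4a1 (2.06), Car1 (1.78) and Klf1 (1.53). Gata1 was 0.89 above, the same as on SNP 1, while Epor was 0.52 and Car2 0.43 above and Tfrc stood at -0.42. By this measure 5 of 9 genes were higher by at least 1, where 5.05% of all genes were, and the members' median was 1.53 against 0.01 over all genes. For 6 of the 9 genes (Gata1, Klf1, Epor, Alas2, Slc4a1 and Hbb-b1) SNP 1 and KO 1 were the 2 highest arrays, as for 8.23% of all genes. Without Klf1 and those 60 genes, 4 of 8 were higher by at least 1 on KO 1 (4.94%) and 5 of 8 had both arrays on top (8.08%). In sorted cells taken in bulk, more cells of a type and more RNA per cell cannot be told apart.

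**Figure D2:**
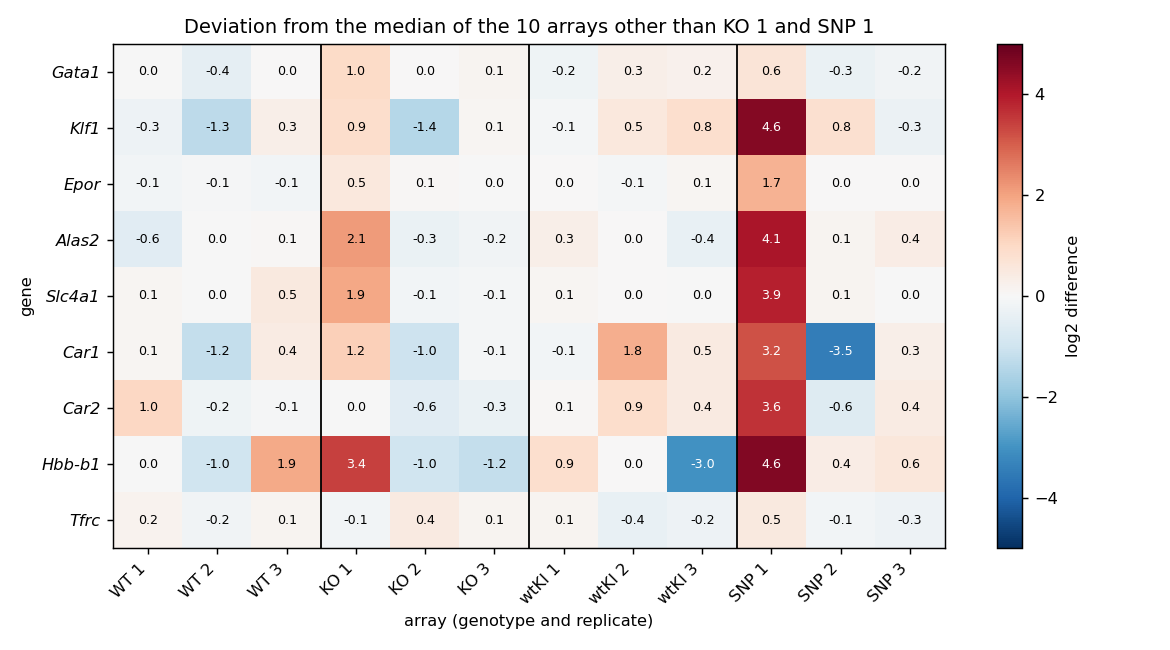
Difference of each gene on each array from its median over the 10 arrays other than KO 1 and SNP 1 (log2, colour and printed value; red higher, blue lower). The SNP 1 column is red for 9 genes, palest for Gata1 and Tfrc, and the KO 1 column is red for Alas2, Slc4a1, Car1 and Hbb-b1 above all, while among the other arrays single squares stand out, such as Car1 on SNP 2 and Hbb-b1 on wtKI 3.

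Of the 51 single probe sets, that of Klf1 and 1 of Alas2 reached 6.14 on KO 1 or SNP 1 alone and are left out of these counts. On SNP 1, 48 of the other 49 were above the mean of SNP 2 and SNP 3, and 38 were at their highest of the 12 arrays. Outside Tfrc, 32 of 33 were highest on SNP 1, the exception being that of Gata1, and 31 of 33 were above the mean of KO 2 and KO 3 on KO 1. Within Slc4a1 the excess ranged from 1.45 to 7.17 on SNP 1 and from 0.16 to 6.16 on KO 1, so its probe sets shared the direction but not the size. In Alas2 it ranged from 0.89 to 5.24 on SNP 1 and from 0.73 to 3.24 on KO 1. For Car2 the range on SNP 1 was 2.20 to 5.72, whereas on KO 1 it ran from -0.86 to 2.07, and for Car1 on KO 1 from -0.38 to 2.55. Tfrc had 6 of its 16 probe sets highest on SNP 1 and 2 of 16 above the mean of KO 2 and KO 3 on KO 1. For these counts the shares over all probe sets were not computed. Probe sets of the same gene are not independent, so the counts repeat the gene values and do not add to them.

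**Figure D3:**
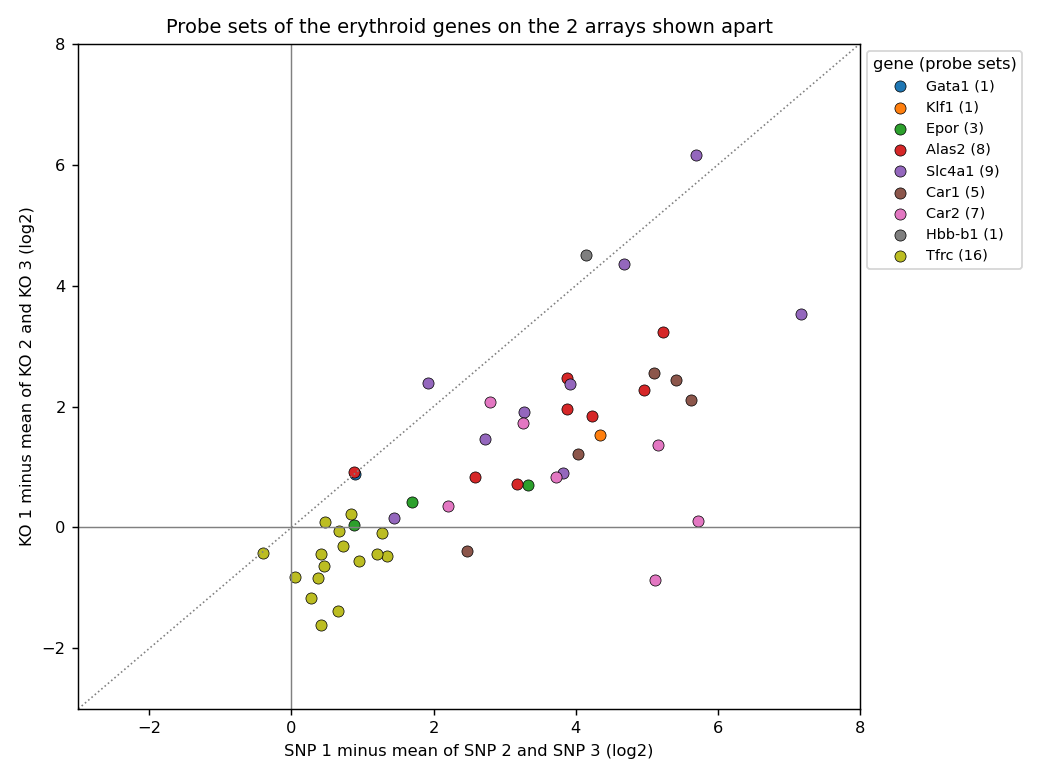
Excess of each of the 51 probe sets on SNP 1 over the mean of SNP 2 and SNP 3 (horizontal, log2) against its excess on KO 1 over the mean of KO 2 and KO 3 (vertical, log2), coloured by gene. The dotted line marks equal excess. Probe sets outside Tfrc lie right of 0 and, but for 2, above 0, mostly below the dotted line, while those of Tfrc lie between -0.40 and 1.34 on the horizontal axis and mostly below 0 on the vertical.

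Members that were high together can be read beside their promoters. RefSeq promoter windows (build GRCm38.p6, 300 bases, from upstream of the gene's start to shortly after it) were at hand for 5 of the 9 genes. Shown are those of Klf1, Epor and Alas2, a regulator, a receptor and an enzyme that were among the genes with both SNP 1 and KO 1 on top. Gata1 was another such gene with a window, which is described below but not printed. For Klf1 the place of SNP 1 was fixed by its presence in the table. Its KO 1 value was 5.75 against 5.73 on wtKI 3, and it lay below the 5th percentile on 8 arrays. Capitals mark GATAA or its reverse TTATC, a form of the sequence that GATA factors bind. They also mark CACCC or its reverse GGGTG, the core that KLF factors bind. GATA followed by another base was not marked or counted. The Klf1 window is chr8:84901732-84902031 on the plus strand, that of Epor chr9:21963527-21963826 on the minus strand and that of Alas2 chrX:150547167-150547466 on the plus strand, each written 5′ to 3′ on the strand of the gene.
Klf1: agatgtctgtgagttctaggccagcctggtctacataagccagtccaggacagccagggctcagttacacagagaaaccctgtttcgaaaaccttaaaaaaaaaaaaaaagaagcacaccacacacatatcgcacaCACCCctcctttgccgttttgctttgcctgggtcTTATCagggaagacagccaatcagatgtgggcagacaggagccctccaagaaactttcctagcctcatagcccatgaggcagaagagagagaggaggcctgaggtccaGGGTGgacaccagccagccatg
Epor: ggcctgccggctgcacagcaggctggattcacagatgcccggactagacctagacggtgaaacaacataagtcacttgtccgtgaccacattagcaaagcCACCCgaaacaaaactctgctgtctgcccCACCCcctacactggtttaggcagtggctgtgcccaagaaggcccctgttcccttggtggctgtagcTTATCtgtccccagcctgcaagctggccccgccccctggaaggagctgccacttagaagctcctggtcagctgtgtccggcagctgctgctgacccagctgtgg
Alas2: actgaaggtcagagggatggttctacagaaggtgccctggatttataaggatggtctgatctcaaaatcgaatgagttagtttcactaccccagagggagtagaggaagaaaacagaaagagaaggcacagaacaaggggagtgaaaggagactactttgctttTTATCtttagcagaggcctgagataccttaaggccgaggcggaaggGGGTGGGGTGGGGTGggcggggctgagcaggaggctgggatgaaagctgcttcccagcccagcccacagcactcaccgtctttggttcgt
Each of the 3 windows held 1 GATAA match, in the TTATC orientation, together with CACCC cores: 2 in Klf1, 2 in Epor and 3 in Alas2, the last 3 directly adjoining each other as GGGTG. Gata1's window had 2 CACCC cores and no GATAA match, and the 2 windows of Tfrc had 3 and 4 CACCC cores and no GATAA match. The matches on the 2 strands do not overlap each other in the windows printed. Among 32851 promoter windows of this length, 25.4% held a GATAA match on either strand, 57.5% a CACCC core and 12.6% both. A match is a description of the letters only. Slc4a1, Car1, Car2 and Hbb-b1 are named without a window.

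Across the 12 arrays the genes other than Tfrc were correlated, and much less so without the arrays shown apart. Over all 36 pairs the median Pearson correlation was 0.643 over the 12 arrays, and Tfrc had only 0.144 to 0.471 with the others. Among the 28 pairs without Tfrc it was 0.715 over the 12 arrays and 0.041 over the 10 without KO 1 and SNP 1. Alas2 and Slc4a1 had 0.977 over 12 arrays and 0.278 over 10, and Epor and Slc4a1 went from 0.960 to -0.557. What remained over the 10 arrays fell into separate pairs. Slc4a1 and Hbb-b1 (0.730) and Alas2 and Hbb-b1 (0.602) stayed together, both pairs of late products of erythroblasts. Car1 and Car2 (0.742) and Gata1 and Car1 (0.711) also did. Between those sets correlations were near or below 0, at -0.01 for Car1 and Hbb-b1, 0.00 for Car2 and Hbb-b1 and -0.30 for Gata1 and Hbb-b1. These are descriptions over 12 or 10 arrays that share their groups and amplification, and they carry no test.

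The first comparison, KO against WT, asked what follows the loss of Gfi1. None of the 9 genes passed (limma, Benjamini-Hochberg over 14199 genes, all adjusted p at 1.00 when rounded). Among all genes 0 passed, 0% of those tested, and 670 had an unadjusted p below 0.05, where 710 would by chance. The 9 differences had a median of 0.28 against -0.02 over all genes. Gata1 was 0.53 ± 0.31 (SE) higher in KO and Epor 0.31 ± 0.38 higher, and for both the groups did not overlap, which held for 5.68% of all genes in this direction and 6.09% in the other. For Epor this was true of the gene value only, as KO and WT overlapped in each of its probe sets. Alas2 differed by 0.71 ± 0.92, Slc4a1 by 0.38 ± 0.89, Klf1 by 0.28 ± 1.04, Car1 by 0.24 ± 1.30, Hbb-b1 by 0.11 ± 1.51, Tfrc by 0.11 ± 0.24 and Car2 by -0.56 ± 0.83. Without KO 1 and SNP 1 the signs of 5 of them turned. Hbb-b1 then stood at -1.39 ± 1.06, Car1 at -0.36 ± 0.99, Slc4a1 at -0.31 ± 0.17, Klf1 at -0.23 ± 0.57 and Alas2 at -0.08 ± 0.24, while Gata1 kept 0.23 ± 0.21. On those 10 arrays 4 genes of all passed, 0.0282% of those tested, and no member was among them, the smallest adjusted p of a member being 0.845 for Slc4a1.

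In SNP against wtKI, which set the variant against the wild-type human form, 7 of 9 genes had a positive difference and none of the 9 passed. Over all genes 47.5% had a positive difference. The 7 include Klf1, whose being highest on SNP 1 was fixed by its presence in the table. Klf1 also lay below the 5th percentile on wtKI 1, wtKI 2 and SNP 3. The size of its difference therefore has little meaning. Hbb-b1 differed by 2.57 ± 1.51 (limma adjusted p = 0.565), Alas2 by 1.55 ± 0.92 (0.570), Slc4a1 by 1.32 ± 0.89 (0.602) and Klf1 by 1.29 ± 1.04 (0.646). Car2 differed by 0.67 ± 0.83, Epor by 0.57 ± 0.38 and Tfrc by 0.19 ± 0.24, while Gata1 stood at -0.06 ± 0.31 and Car1 at -0.72 ± 1.30. The groups overlapped for all 9, whereas they did not for 7.23% of all genes with SNP higher and 7.40% with SNP lower. Again 0 genes passed (0%), with 1256 at an unadjusted p below 0.05. The excess went with 1 array. Without KO 1 and SNP 1, Alas2 had 0.27 ± 0.24, Slc4a1 0.03 ± 0.17, Epor 0.00 ± 0.13 and Klf1 -0.16 ± 0.57. Car1 then reached -2.31 ± 0.99 (unadjusted p = 0.042, limma adjusted p = 0.580), a value that rests on SNP 2 at 3.49, since SNP 3 at 7.23 lay within the wtKI range. With all arrays but SNP 2 the Car1 difference was 1.01. Hbb-b1 kept 1.19 ± 1.06 on the 10 arrays, where wtKI 3 at 3.90 was far below the other 2 wtKI arrays, and 0 genes passed there (0%, 1190 at an unadjusted p below 0.05).

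The wild-type human knock-in against mice with no knock-in, wtKI against WT, gave differences of mixed sign, from -1.01 ± 1.51 for Hbb-b1 to 0.94 ± 1.30 for Car1, with a median of 0.15 and none past the threshold. Klf1 had 0.85 ± 1.04, Gata1 0.24 ± 0.31, Car2 0.21 ± 0.83, Alas2 0.15 ± 0.92 and Epor 0.12 ± 0.38. Slc4a1 stood at -0.17 ± 0.89 and Tfrc at -0.20 ± 0.24. No member's groups were apart, as they were for 5.78% of all genes upward and 6.83% downward. Neither group holds KO 1 or SNP 1, so the differences were the same on 10 arrays and only their errors shrank, to 0.51 for Klf1 and 0.95 for Hbb-b1. The share of all genes passing was 0% with 12 arrays (434 at an unadjusted p below 0.05) and with 10 (1052). Without wtKI 3 the Hbb-b1 difference was 0.14.

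SNP against WT set the variant knock-in against mice with no knock-in, with the WT arrays of the other comparisons and the SNP arrays used above. Klf1 stood at 2.14 ± 1.04 (limma adjusted p = 0.329), but its 3 WT values and SNP 3 lay below the 5th percentile of their arrays, so the size of this difference has little meaning. Alas2 followed with 1.70 ± 0.92 (0.360), Hbb-b1 with 1.56 ± 1.51 (0.580) and Slc4a1 with 1.15 ± 0.89 (0.495). Car2 differed by 0.88 ± 0.83, Epor by 0.69 ± 0.38, Car1 by 0.22 ± 1.30, Gata1 by 0.18 ± 0.31 and Tfrc by -0.01 ± 0.24. Epor and Alas2 were the 2 genes whose 3 SNP gene values all lay above the 3 WT gene values, a pattern of 12.9% of all genes in this direction and 12.9% in the other. Of the Epor probe sets only 10591666 showed it singly. In 10591661 SNP 2 and SNP 3, both at 5.34, lay below all 3 WT values. Among the Alas2 probe sets some overlapped as well. No gene of the table passed (0%), and 2259 had an unadjusted p below 0.05. On 10 arrays the members' median went from 0.88 to -0.12, with Alas2 at 0.42 ± 0.24, Klf1 at 0.69 ± 0.57, Epor at 0.13 ± 0.13 and Slc4a1 at -0.13 ± 0.17, and 0 genes passed (0%, 2281 unadjusted). KO, wtKI and SNP were all set against the same 3 WT arrays, and wtKI and SNP each enter 2 comparisons, so the 4 sets of values are not independent.

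**Figure D4:**
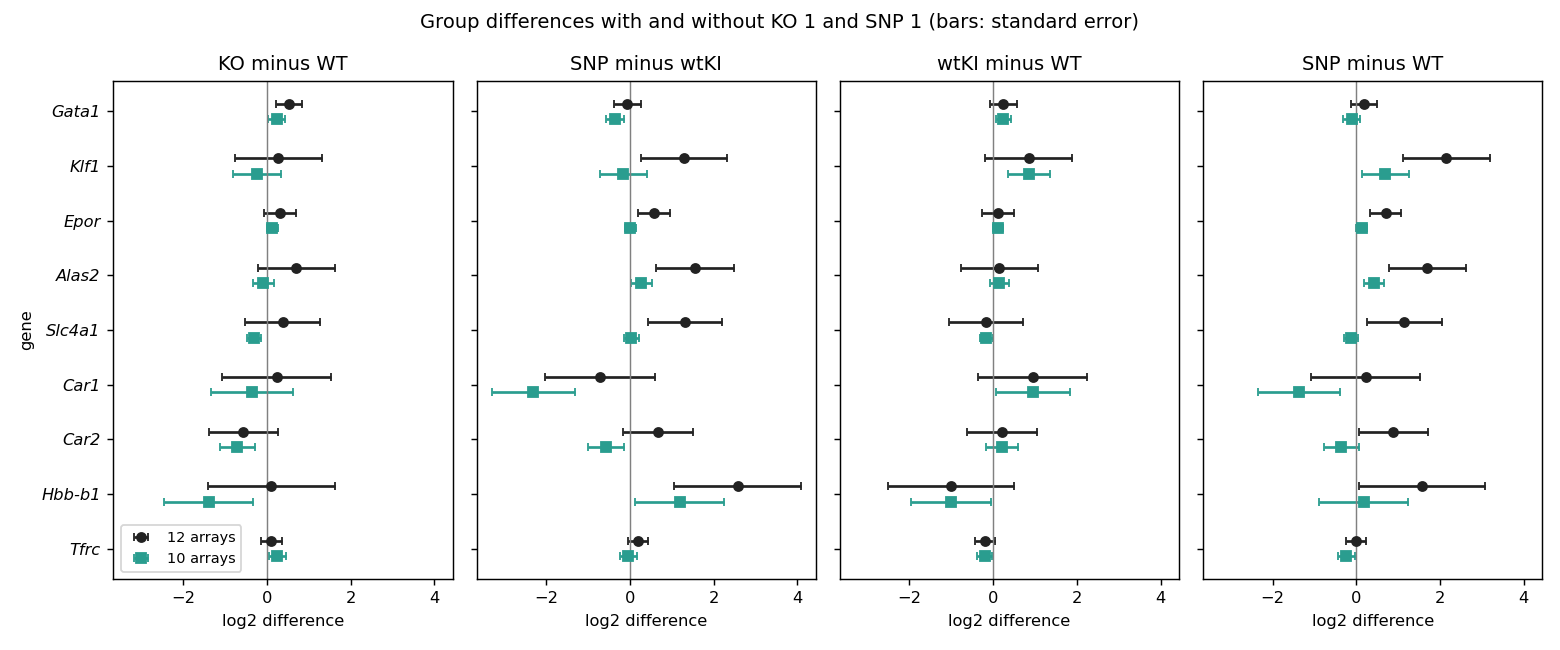
Log2 difference of each of the 9 genes in the 4 comparisons (horizontal axis; bars are the standard error), fitted on 12 arrays (dark circles) and on the 10 without KO 1 and SNP 1 (green squares). In SNP minus wtKI the circles of Klf1, Alas2 and Slc4a1 lie above 1 and their squares near 0, Car1's square moves to -2.31, and in wtKI minus WT circle and square coincide.

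Other genes of the erythroid pathway were read from 7 lists. No gene of these lists passed in any comparison, on 12 or on 10 arrays. Over all genes, 46.2% were higher on SNP 1 and 50.4% on KO 1, against the mean of the group's other arrays. The counts of higher genes below stand beside these shares. Against the mean of SNP 2 and SNP 3, SNP 1 was higher for all 15 measured genes of the red cell membrane and skeleton, with a median of 1.65. They were led by Rhag (5.29) and Rhd (4.25), of the Rhesus complex, and Epb42 (4.31), which links band 3 to the skeleton. Rhag reached 6.14 on KO 1 and SNP 1 alone, and without it 14 of 14 were higher, with a median of 1.38. On KO 1, 13 of these 15 were higher, with a median of 0.67 and Rhd at 5.57. Its values were 9.66 on KO 1 and 10.18 on SNP 1, and 3.37 to 6.04 on the other 10 arrays, of which 5, KO 2 and KO 3 among them, were below the 5th percentile.

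Of the terminal maturation genes, 11 of 15 were higher on SNP 1 (median 0.87), the largest differences being 6.20 for Cd36, a fatty acid receptor of erythroid progenitors, platelets and macrophages, 3.09 for Hemgn, a nuclear protein of haematopoietic cells, and 2.55 for Blvrb, a biliverdin reductase. Cd36 too reached 6.14 on KO 1 or SNP 1 alone, and without it 10 of 14 were higher (median 0.86). In haem synthesis, 6 of 7 genes were higher, with Fech, which inserts the iron, at 1.86 and Ppox at 1.57. The other direction belonged to Alas1, the form of the first enzyme used outside red cells, at -1.81. So Alas2 and Alas1 differed in opposite directions on SNP 1. On KO 1 Alas1 was at -0.53, and the median of the haem list was 0.02.

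Upstream regulators stood out less. Of 12 erythroid transcription factors and cofactors, 9 were higher on SNP 1 with a median of 0.22. The largest differences were 2.45 for Klf3, a repressor of KLF1 targets, 1.79 for E2f2, which acts in the last erythroid divisions, and 1.42 for Sox6, a repressor of embryonic globin. Myb, which is switched off as erythroid cells mature, was at -1.33. In erythropoietin signalling 3 of 6 measured genes were higher, among them Bcl2l1, a survival gene, at 2.79 and the kinase Pim1 at 0.75, whereas Kit, the receptor for stem cell factor, which is also in the GMP list, was at -2.26. Among iron genes 7 of 11 were higher (median 0.17), with 2.31 for the exporter Slc40a1, 1.47 for the mitochondrial importer Slc25a37 and 1.10 for Hmox1, which degrades haem. Of the globins and their chaperone none had a probe set with 1 symbol, so that list was read only through the shared probe sets above.

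Markers of other cell types differed on SNP 1 as well, so the erythroid genes were not alone. All 17 late neutrophil genes were higher on SNP 1 by at least 1 (median 3.63), and so were all 8 measured B lineage genes (median 2.60). Of these, Ly6g, Olfm4, Ebf1 and Rag1 reached 6.14 on KO 1 or SNP 1 alone, and without them the counts were 15 of 15 (median 3.63) and 6 of 6 (median 2.44). GMP defining and primary granule genes were lower in 8 of 12 (median -0.94), with Kit, Cd34 and Ms4a3 at -2.26, -2.02 and -1.88. Every one of 17 ribosome biogenesis genes was lower (median -1.41). Of 6 genes of the erythroblastic island macrophage, 5 were higher (median 1.12), but Cd163 was at -2.41 and Siglec1 at 0.43. Megakaryocyte and platelet genes (2 of 6 higher, median -0.16) and mast cell, basophil and eosinophil genes (8 of 11 higher, median 0.27), 2 other groups that use Gata1, showed no such shift. Set against the WT mean, the late neutrophil list was at 3.67 on SNP 1 and between -0.99 and 0.48 on the 10 arrays, and the B lineage list at 3.52 against -0.09 to 0.65. The 9 erythroid genes were at 3.02 by that measure on SNP 1, at 1.24 on KO 1 and between -0.46 and 0.38 on the others.

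On KO 1 the lists stood in another order. Late neutrophil genes there were at 0.11 against the WT mean, within the range of the 10 arrays, while B lineage genes (0.95) and the erythroid genes (1.24) were above it. The GMP list (-0.35) and the ribosome biogenesis list (-0.57) were below it, as on SNP 1. Their medians on KO 1 over KO 2 and KO 3 were -0.41 (1 of 12 genes higher) and -0.52 (0 of 17). Against the other KO arrays, whose late neutrophil genes were the lowest of all, 11 of 17 were higher on KO 1. Ebf1 and Igll1, both B lineage, were 3.94 and 3.38 above KO 2 and KO 3. The mean of the mast cell list was 1.26 on KO 1, next to 1.18 on wtKI 3. The part of these other cell types, of the scatter between probe sets and of maturation in the values of the erythroid genes was not tested.

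**Figure D5:**
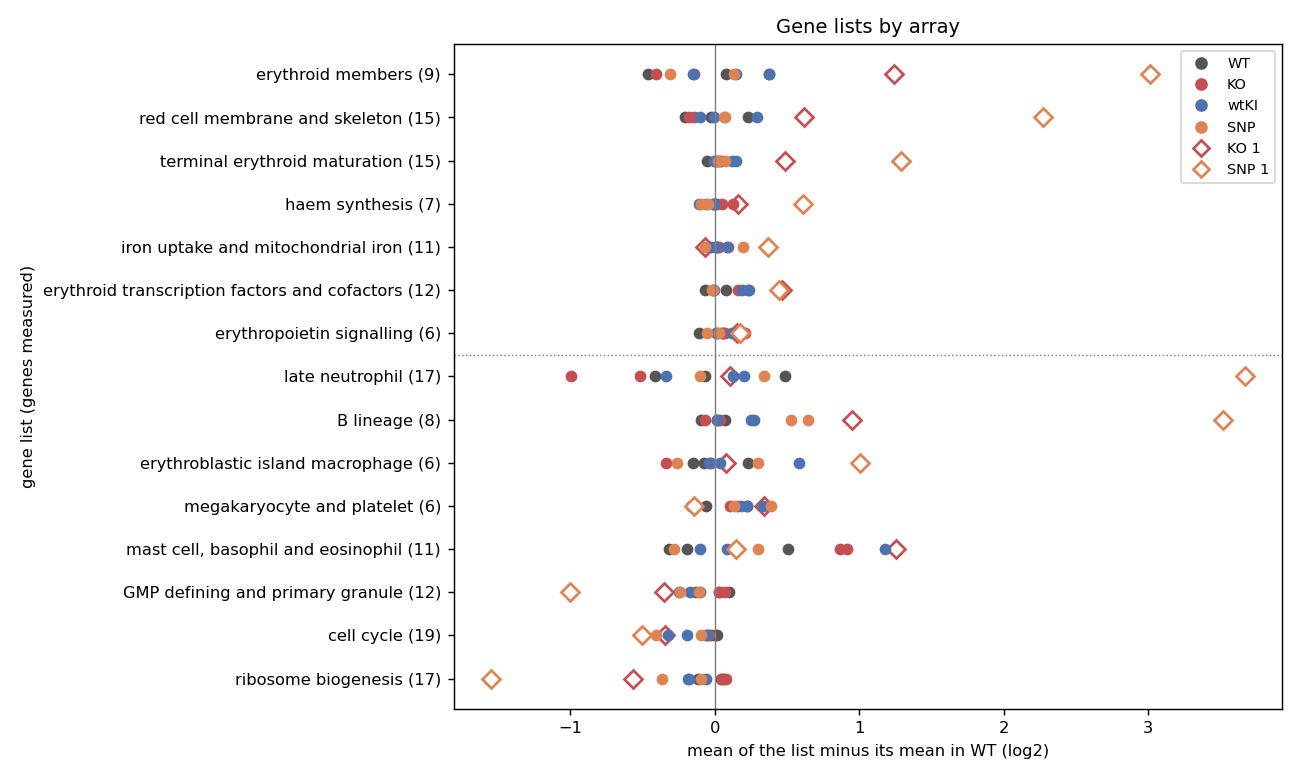
Mean of each gene list on each array minus its mean in WT (log2, horizontal axis), with the number of genes measured in parentheses; lists above the dotted line are erythroid, those below are markers of other cells and processes. Diamonds are KO 1 and SNP 1. SNP 1 lies far right for the erythroid genes, the red cell membrane, the late neutrophil and the B lineage lists, and far left for GMP and ribosome biogenesis genes, while KO 1 lies outside the other 10 arrays, by smaller distances, for the erythroid, membrane, terminal maturation and B lineage lists among others.

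The marker genes with the highest and lowest mean level in each list were also read singly. S100a9 (late neutrophil) was at 11.89 on SNP 1 and 5.50 to 9.80 on the 10 arrays, and Ly6g at 9.46 against 2.74 to 5.90. In the B lineage Cd79b was at 8.95 against 6.59 to 8.01 and Ebf1 at 9.38 against 1.12 to 4.66. Mpo and Csf3r, at the ends of the GMP list, were at 10.70 and 8.01 on SNP 1, and at 11.40 to 11.58 and 6.75 to 7.60 on the 10 arrays. Adgre1 and Hpgd, of the island macrophage list, were at 8.52 and 8.99 on SNP 1 and reached 7.36 and 6.29 on the 10 arrays, with Hpgd at 7.74 on KO 1. Pf4 (megakaryocyte) was at 5.79 on SNP 1, the lowest of the 12 arrays, and Itgb3 at 5.95. Of the mast cell list Prg2 was at 9.95 and Fcer1a at 6.18, both inside the range of the other arrays. Pcna and Plk1 (cell cycle) were at 11.01 and 7.31, also inside it, whereas Npm1 and Bop1 (ribosome biogenesis) were at 10.33 and 6.01, below it.

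The genes whose pattern was most like that of each erythroid gene depended on whether KO 1 and SNP 1 were counted. Over 12 arrays Alas2 was closest to Scrg1, Apoc2 and Ccl6 (Pearson r 0.980, 0.974 and 0.971) and Slc4a1 to Sirpb1a, Itgam and Scrg1 (0.981, 0.981 and 0.972), among them Itgam and Ccl6, genes of mature myeloid cells. On the 10 arrays the values for Itgam and Slc4a1 were 0.373 and for Ccl6 and Alas2 0.465. Epor was closest to Acpp, Fcrl1 and Mxd1 (0.985, 0.981 and 0.980), which had 0.396, 0.040 and 0.300 on the 10 arrays. Klf1 was closest to Pou2af1, Usp32 and Card19 (0.953, 0.949 and 0.948), the first a coactivator of B cells. On the 10 arrays these had 0.783, 0.864 and 0.755. On 8 of those arrays Klf1 lay below the 5th percentile, so its likeness there has little meaning.

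Among the other members the values over the 10 arrays varied. For Car1 these were Alox5, Apbb1 and Tspan13 (0.909, 0.905 and 0.891 over 12 arrays and 0.871, 0.850 and 0.856 over 10). Car2 was closest to Cacnb3, Zfp36 and Tmcc2 (0.959, 0.932 and 0.929, with 0.817, 0.608 and 0.594 over 10), and over 10 arrays to Frg1, Gchfr and Bnip3l (0.894, 0.892 and 0.891). Bnip3l, which clears mitochondria from maturing red cells, also had 0.916 over 12. Hbb-b1 was closest to Ptpro, Cldn13 and Pkig (0.926, 0.905 and 0.900), with 0.849, 0.702 and 0.724 on the 10 arrays. Gata1 had Slc2a3, Usp46 and Mob3a (0.930, 0.910 and 0.906, with 0.780, 0.704 and 0.711 over 10), and Tfrc had Rraga, Atxn10 and Zfyve9 (0.862, 0.849 and 0.843, with 0.796, 0.788 and 0.779 over 10). Over the 10 arrays alone the 3 nearest genes had r between 0.863 and 0.950 for each of the 9 members, and they were Acss2, Parp16 and Dnmt3b for Gata1, Limd2, Zfhx3 and Hps1 for Klf1, Serf1, Ccdc77 and Xrra1 for Epor, Prdx4, Baiap3 and Cd109 for Alas2, Filip1, Mymk and Plac8l1 for Slc4a1, Aldh5a1, Dnajc4 and Aldh1l2 for Car1, Scfd2, Mctp1 and Tfec for Hbb-b1, and Mmp24, Cd320 and Atad3a for Tfrc. These were the highest among 14199 genes, over arrays that share their groups, and carry no test. For Klf1 they rest mostly on arrays where it was below the 5th percentile.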

How the data were processed

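The 12 samples of sorted GMP RNA were hybridised to Affymetrix whole-transcript mouse arrays. The labels' protocols name a small-input RNA column and a NuGEN Pico amplification. The deposited values are log2 signals per exon-level probe set, made by the authors with RMA, as the submitters' processing notes name it. The RMA version, settings and any filter were not given in the sources used here. The lowest of the maxima over arrays was 6.14, so rows low on all arrays are not in the table. The platform annotation gave 98975 of 105661 probe sets 1 symbol, 1703 several and 4983 none. Symbols were updated through a RefSeq table of GRCm38.p6 (1756 updated; 14146 of 14199 genes found there). Sequences are RefSeq's, of that build.

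Each gene's value per array is the median polish of its probe sets with 1 symbol. Comparisons used limma 3.58.1 in R 4.3.3 (lmFit, eBayes, two-sided) on 12 arrays, with Benjamini-Hochberg adjustment over 14199 genes and a threshold of 0.05. Errors are standard errors of that fit, with 3 arrays a group. The fit on 10 arrays leaves out KO 1 and SNP 1. The code was tested on simulated data. For arrays, their number limits the precision. No 2 arrays shared more than 0.0511% of values.

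The members and lists were chosen with earlier results of these data known. The named genes were every member; the 3 pathway genes of each list with the largest difference on SNP 1; the 3 genes most correlated with each member over 12 and over 10 arrays, predicted and olfactory genes left out; and, of each marker list, the genes of highest and lowest mean. Rhd, Alas1, Myb, Kit, Cd34, Ms4a3, Cd163, Siglec1, Igll1 and the probe set of Slc4a1 were named after their values were seen where no rule names them. The same holds for Icam4, Tspo2 and the probe sets named for Epor. Elane was not analysed here, since its older symbol is ambiguous. Figures were drawn with matplotlib 3.10.9 in Python 3.11.15.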

Additional observations from a re-analysis of the deposited data

How the results depend on the processing

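For the 9 genes in 4 comparisons, 816 alternative values under 23 settings were computed, and 0 passed the threshold (limma, smallest adjusted p = 0.187). Of these, 810 kept their direction or had none beyond their error, and 6 turned: without KO 1 and SNP 1, and also without SNP 1 alone, Klf1 in SNP minus wtKI was -0.16 (2.29 without SNP 3), and in SNP minus WT Slc4a1 was -0.13 (1.82 without SNP 3) and Car2 was -0.36 (1.77 without SNP 2). Taking for each gene the probe set with the highest mean turned Tfrc on KO 1 against KO 2 and KO 3 to 0.0918. Klf1, Epor and Car2 were among the dimmest 30% of genes and had no value without them. Genes passing among all genes were 0 in each comparison, and stayed 0 under median centring, repeated quantile normalization, a robust variance trend and sex as a term. The count for KO minus WT was 3 with the plain mean of probe sets, 3 with all probe sets fitted singly, 1 with only the groups compared, 4 on 10 arrays and 493 with array weights, which gave KO 2 a weight of 6.83 and KO 1 0.219; the cause was not tested. SNP minus wtKI had 3 with probe sets and 1 with only the groups compared, wtKI minus WT had 2 with probe sets and 4 with array weights, and SNP minus WT had 1 without the dimmest 30% and 4 with array weights. Leaving out 1 array gave 0 to 5 for KO minus WT (5 without SNP 1), 0 to 2 for SNP minus wtKI, 0 to 1 for wtKI minus WT and 0 to 2 for SNP minus WT. With the replicate number as a block 0 genes passed in all 4 comparisons (715, 1479, 456 and 2484 at an unadjusted p below 0.05). Same-numbered arrays did not deviate together in the groups compared (correlations from -0.05 to 0.11), so the numbers were not taken to pair samples there. KO and SNP, which no comparison set against each other, had 0.35, 0.21 and 0.14, and KO 1 and SNP 1 share a number. Signals under the 5th percentile of an array limit Klf1 most, on 8 arrays.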

Other observations

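In KO, with or without KO 1, the list of mast cell, basophil and eosinophil genes, other users of Gata1, stood above WT: 11 of 11 measured genes had a positive difference on 12 arrays (median 0.95) and 10 of 11 on 10 arrays (median 0.73). Over all genes 46.9% and 48.0% had a positive difference. None of the 11 passed (limma), and 4 and 3 had an unadjusted p below 0.05, as 670 and 963 of 14199 genes did. In wtKI 9 of 11 were above WT (median 0.43), where 48.8% of all genes were. By array, the list minus its WT mean was at -0.10, 0.09 and 1.18 in wtKI, so only wtKI 3 stood out. It was at 1.26, 0.92 and 0.87 in KO and at -0.19, 0.51 and -0.32 in WT. Fcer1a, the IgE receptor chain, was at 8.07, 7.88 and 8.19 in KO and at 3.25, 5.82 and 4.89 in WT. Its values on WT 1 and WT 3 lay below the 5th percentile of those arrays (5.45 and 5.49). The size of this gap therefore has little meaning. Gata2, a GATA factor of mast cells and early progenitors, was at 6.99, 6.99 and 6.98 in KO and 6.61, 6.57 and 6.19 in WT. Both genes were chosen after their values were seen.

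Gfi1b, the erythroid relative of Gfi1, was at 6.77, 6.48 and 6.43 in KO and 6.26, 6.02 and 6.11 in WT, a difference of 0.43 ± 0.18 (SE, limma adjusted p = 1.00), and of 0.33 ± 0.17 (adjusted p = 0.777) on the 10 arrays. It was chosen as the relative of the altered gene. Icam4, an adhesion molecule of erythroblasts, went opposite ways on the arrays shown apart, at 1.66 on KO 1 over KO 2 and KO 3 and at -0.91 on SNP 1 over SNP 2 and SNP 3. Tspo2, of the red cell membrane list, was at -2.19 on KO 1 and 4.08 on SNP 1. Icam4 and Tspo2 were chosen after their values were seen.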
